A study of Homo sapiens with 6 samples.

Results

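The genes carried by the mitochondrial chromosome itself were followed in RNA-seq libraries of HepG2 cells, an immortal line grown from a human liver tumour. They were taken as every entry of the count table whose symbol starts with MT-, which gave 37 of 59608 genes: 13 genes for proteins, 2 for ribosomal RNAs (rRNAs) and 22 for transfer RNAs (tRNAs). The rule reads the symbol and no measured value, and all 37 passed the filter on low counts, so that none is missing from what follows. The table holds 6 libraries, 3 named VEZF1-WT and 3 named VEZF1-2A. VEZF1 is a zinc finger transcription factor. In both groups the cells' own VEZF1 was silenced with an sgRNA delivered by lentivirus. VEZF1 was then put back, either as the wild type or as the 2A form, in which the pair of serines that carry the sugar O-GlcNAc is replaced by alanine. Cells with their own VEZF1 and cells left without it are not among these libraries. The labels do not say whether the libraries of a group came from separate cultures, so p-values measure only the spread between these libraries, which may be technical. The question the comparison answers is whether RNA levels differ between cells given these forms of VEZF1. The forms differ in the serines themselves as well as in the sugar. The paper reports that the protein with alanine was less stable in another liver cancer line. Amounts of VEZF1 protein are not among these data, so an effect of the sugar alone was not tested.

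The mitochondrial genome is a small circle of DNA that codes for a few core subunits of the respiratory chain and of ATP synthase, together with the rRNAs and tRNAs needed to translate them inside the organelle. All other mitochondrial proteins, including the RNA polymerase POLRMT and its factor TFAM, are encoded in the nucleus and imported. Both strands are transcribed into long precursors, most genes lie on the transcript called the heavy-strand transcript, and the tRNAs that separate many of the genes are cut out to release the mRNAs and rRNAs. Liver cells are rich in mitochondria, and the level of these RNAs depends on transcription, on stability and on the number of genome copies.

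The libraries held 28756765 to 57199396 counts. RNA levels are given as CPM, the count scaled for depth with library sizes corrected by TMM, and as RPKM, the CPM per kilobase of gene, where genes are compared with each other. VEZF1 itself stood at 59.3, 45.6 and 40.0 CPM in the VEZF1-WT libraries and at 46.2, 48.6 and 38.9 CPM in the VEZF1-2A libraries, groups that overlapped. These counts do not separate the re-expressed forms from each other, or from any RNA of the cells' own VEZF1 gene. All 10 hepatocyte markers examined were expressed, with a summed level of 14785 to 19654 CPM, while fibroblast markers summed to 0.842 to 1.93 CPM and endothelial markers to 2.14 to 4.35 CPM. Among leukocyte markers PTPRC and CD3E were near 0, while LYZ, which codes for lysozyme, had 493 to 663 CPM. Between 5 and 6 of the 10 most abundant genes of a library were mitochondrially encoded.

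The table gives the mitochondrial genes as single exons on GRCh38 (chrM), and all 37 positions match GENCODE release 29. The genes are packed closely. MT-ATP8 and MT-ATP6 share 46 bases (chrM:8527-8572, plus strand), read in different frames, which is 22.2% of MT-ATP8. MT-ND4L and MT-ND4 share 7 bases (chrM:10760-10766). MT-ATP6 and MT-CO3 share 1 base, MT-TI and MT-TQ share 3 on opposite strands, and MT-TC and MT-TY share 1. How a read over shared bases was counted is not given in the sources used here. The first run below shows the bases shared by MT-ATP8 and MT-ATP6 with the start codon of MT-ATP6 in capitals, and the second shows the bases shared by MT-ND4L and MT-ND4, with the start codon of MT-ND4 as its first 3 letters and the stop codon of MT-ND4L as its last 3.
MT-ATP8 and MT-ATP6: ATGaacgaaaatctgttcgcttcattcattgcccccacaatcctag
MT-ND4L and MT-ND4: ATGCTAA

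Of the 13 mRNA genes, 6 end in an incomplete codon, a feature of human mitochondrial genes whose stop codon is completed by the A bases added after cleavage. The incomplete ends are shown because they tie poly(A) tails, by which the library kit primes mRNA, to the coding part of the RNAs that have them. The last letters of 4 of these genes and of 2 with an unusual last codon are printed below, with the bases after the last complete sense codon in capitals.
MT-ND1: ccccctcaaaccTA
MT-ND2: ctaataatcttaT
MT-CO3: tgatgagggtctT
MT-CYB: ctcaaatgggccT
MT-CO1: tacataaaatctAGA
MT-ND6: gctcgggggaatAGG

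Per length, the mRNA genes did not stand at one level, although 12 of the 13 lie on the same strand. These levels are read densities over genes. MT-ATP8 shares bases with MT-ATP6, and MT-ND4L with MT-ND4, so the values of such a pair are not those of separately measured RNA molecules. MT-ATP8 was highest at 19274 ± 2118 RPKM (mean ± SD, n = 6), then MT-ATP6 at 14743 ± 1278 RPKM; both code for subunits of ATP synthase (complex V). MT-CO3, a core subunit of cytochrome c oxidase (complex IV), followed at 10828 ± 1036 RPKM, and MT-ND6, the one protein gene of the opposite strand, came next at 9435 ± 469 RPKM. The value of MT-ND6 may include RNA of the other strand, because whether reads were counted by strand is not given. MT-ND3, a short subunit of NADH dehydrogenase (complex I), was the lowest mRNA gene at 1795 ± 133 RPKM. This put 10.7-fold between the highest and the lowest mRNA gene. Between them, in falling order, lay MT-ND4L at 8003, MT-ND4 at 6811, MT-ND1 at 6133, MT-ND5 at 4837, MT-CO1 at 3932, MT-ND2 at 3664, MT-CO2 at 2859 and MT-CYB at 2719 RPKM. The rRNAs were placed far apart. MT-RNR2, the large-subunit rRNA, had a level of 7571 ± 481 RPKM, between MT-ND4L and MT-ND4. MT-RNR1, the small-subunit rRNA, was the lowest of the 15 at 282 ± 29.2 RPKM. The ratio of MT-RNR2 to MT-RNR1 per length was 27.3 ± 0.92 in VEZF1-WT and 26.6 ± 2.45 in VEZF1-2A (SD, n = 3), although only a tRNA gene lies between them on the heavy-strand transcript.

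In this order 10 of 14 pairs of neighbours had ranges over the 6 libraries that did not overlap. Ranges overlapped for MT-ND4L and MT-RNR2, for MT-RNR2 and MT-ND4, for MT-CO1 and MT-ND2 and for MT-CO2 and MT-CYB, and these neighbours are not ordered beyond their spread. Within single libraries MT-ND4L was above MT-RNR2 in 4 of 6 and MT-CO1 above MT-ND2 in 5 of 6, and the other 2 pairs kept their order in all 6. The order is one of read density, and what library preparation and mapping add to it for each sequence was not tested.

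**Figure D1:**
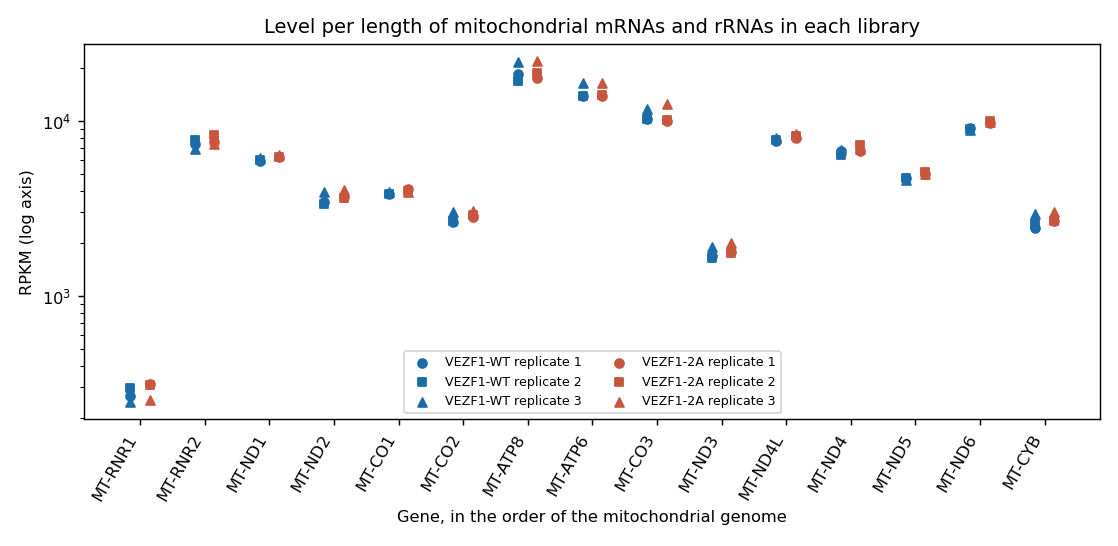
RPKM (log axis) of the 13 mRNAs and 2 rRNAs in each of the 6 libraries, in genome order; blue points are VEZF1-WT and red points VEZF1-2A, and the marker gives the replicate number. MT-ATP8 and MT-ATP6 are highest and MT-RNR1 lowest in every library, and the distance between genes is far larger than that between groups.

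No mitochondrially encoded gene was called different between VEZF1-WT and VEZF1-2A libraries. Their log2 fold changes ran from -0.30 to 0.13, with standard errors of 0.05 to 0.21. By the quasi-likelihood test of edgeR, 0 of the 37 passed an adjusted p of 0.05, as did 0 of all 19111 genes tested (0%), and the adjusted p was 0.9996 for each of the 37. At an unadjusted p under 0.05 there were 2 of the 37, beside 408 (2.13%) of all genes tested. Both of these, MT-ND6 and MT-TT, were lower in VEZF1-WT (1.3% of all genes), and 0 were higher (0.832%). DESeq2 called 3 of all genes at an adjusted p under 0.05, none of them mitochondrially encoded, and limma voom called 0. The log2 fold change of VEZF1-WT over VEZF1-2A was below 0 for 30 of the 37, beside 49.9% of all genes, and above 0 for 7. By class it was below 0 for 13 of 13 mRNAs, 2 of 2 rRNAs and 15 of 22 tRNAs. The median over the 37 was -0.06, and -0.07 for the mRNAs, -0.10 for the rRNAs and -0.03 for the tRNAs, against 0.00 over all genes tested. CPM of the groups did not overlap for 7 of the 37, beside 7.36% of all genes. Each of these was lower in VEZF1-WT, namely MT-ND1, MT-CO1, MT-ND4L, MT-ND5, MT-ND6, MT-TF and MT-TT, beside 3.86% of all genes in that direction, and 0 were higher, beside 3.5%. Genes cut from the same precursor are measured in the same libraries and are not independent, so these counts are a description of 6 libraries. For a single gene, an exact permutation test of 3 libraries against 3 cannot give a p below 0.1 (two-sided), and it gave that value for each of the 7.

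**Figure D2:**
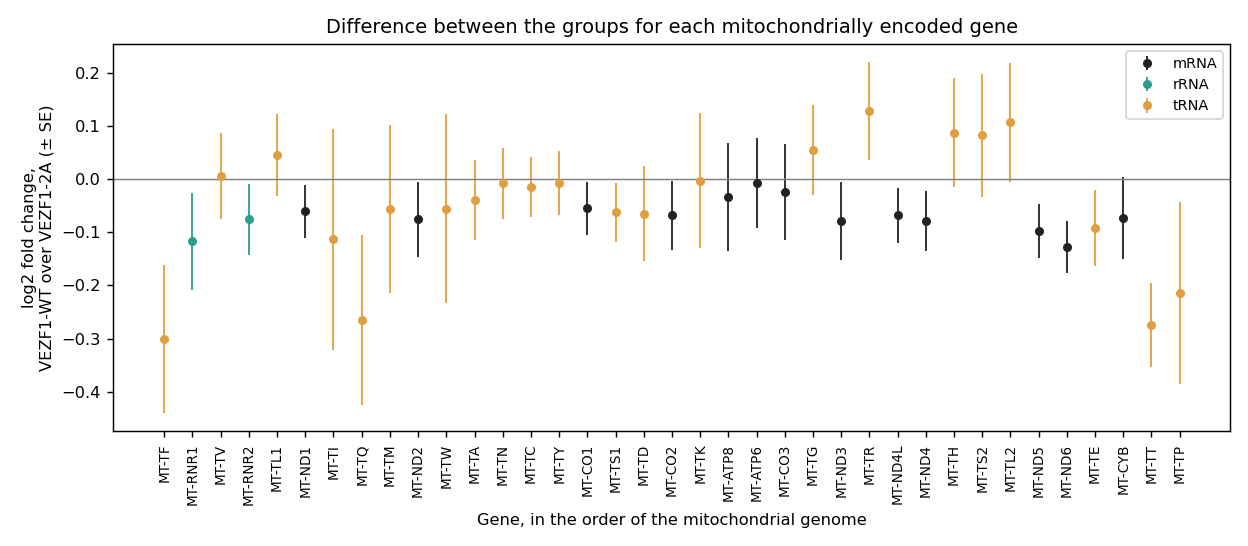
log2 fold change of VEZF1-WT over VEZF1-2A with its standard error for the 37 genes in genome order (black mRNAs, green rRNAs, orange tRNAs). Points of all mRNAs and rRNAs lie between -0.13 and -0.01, and those of the tRNAs spread from -0.30 to 0.13.

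Complex I takes electrons from NADH, and 7 of its subunits are mitochondrially encoded. MT-ND6 lies on the minus strand of the annotation (chrM:14149-14673), and VEZF1-WT libraries had 4793, 4745 and 4664 CPM of it, against 5114, 5234 and 5169 CPM in VEZF1-2A. Every VEZF1-WT library was below every VEZF1-2A library, with a log2 fold change of -0.13 (SE 0.05; edgeR unadjusted p = 0.0265). MT-ND5, which codes for one of the proton-pumping subunits and ends at the base before MT-ND6 (chrM:12337-14148, plus strand), had 8537, 8569 and 8301 CPM in VEZF1-WT and 8970, 9231 and 8984 CPM in VEZF1-2A. These groups did not overlap either, at a log2 fold change of -0.10 (SE 0.05; edgeR unadjusted p = 0.0789). Strand could not be used: whether reads were counted by strand is not given in the sources used here, and without it RNA of the opposite strand over the bases of MT-ND6 cannot be told apart from its mRNA. Leaving out VEZF1-WT replicate 2, VEZF1-2A replicate 1 or VEZF1-2A replicate 2 brought the unadjusted p of MT-ND6 in edgeR's quasi-likelihood test to 0.0719, 0.0523 and 0.0526.

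MT-ND1 and MT-ND4L, membrane subunits of the same complex, showed the same separation on a smaller scale. MT-ND1 had 5624, 5739 and 5857 CPM in VEZF1-WT against 5945, 5953 and 6063 CPM, and its log2 fold change was -0.06 (SE 0.05). MT-ND4L had 2265, 2314 and 2382 CPM against 2383, 2419 and 2498 CPM, so that the highest VEZF1-WT library lay only just below the lowest VEZF1-2A library. Its separation was lost when libraries were scaled by the upper quartile. MT-ND2, MT-ND3 and MT-ND4 overlapped between groups, with log2 fold changes of -0.08 (SE 0.07), -0.08 (SE 0.07) and -0.08 (SE 0.06); MT-ND4 did not overlap when libraries were scaled by their size alone. MT-ND4 had the highest CPM of the 7, at 9130 ± 339 in VEZF1-WT and 9643 ± 390 in VEZF1-2A (SD, n = 3).

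MT-CYB, cytochrome b and the 1 mitochondrially encoded subunit of complex III, had 2796, 2922 and 3356 CPM in VEZF1-WT and 3046, 3074 and 3424 CPM in VEZF1-2A. The groups overlapped, and the library numbered 3 was the highest of each group (log2 fold change -0.07, SE 0.08). In complex IV, which passes electrons to oxygen, MT-CO1 was the gene whose groups did not overlap, at 5880, 5923 and 6039 CPM against 6294, 6164 and 6078 CPM (log2 fold change -0.06, SE 0.05). That gap vanished when libraries were scaled by their size alone. MT-CO2 and MT-CO3 overlapped, with log2 fold changes of -0.07 (SE 0.06) and -0.02 (SE 0.09).

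Complex V, the ATP synthase, had the median log2 fold change nearest to 0 of the 4 complexes, at -0.02. MT-ATP6, a subunit of its proton channel, had 9448, 9449 and 11140 CPM in VEZF1-WT and 9448, 9572 and 11183 CPM in VEZF1-2A. Libraries with the same number stood nearly level, and the log2 fold change was -0.01 (SE 0.08), so that the spread inside a group exceeded any difference between groups. MT-ATP8, a short accessory subunit, had 3817, 3504 and 4507 CPM against 3659, 3904 and 4547 CPM, with a log2 fold change of -0.03 (SE 0.10).

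The rRNAs of the mitochondrial ribosome overlapped between groups. MT-RNR2 had 11519, 12163 and 10796 CPM in VEZF1-WT and 11820, 13025 and 11492 CPM in VEZF1-2A, or -0.08 on the log2 scale (SE 0.07; edgeR unadjusted p = 0.283). MT-RNR1 had 256, 283 and 235 CPM against 301, 295 and 243 CPM, at -0.12 (SE 0.09; edgeR unadjusted p = 0.228). In both genes the library numbered 3 was the lowest of its group, the reverse of what MT-CYB and the complex V mRNAs showed.

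The 22 tRNA genes, of 59 to 75 bases, gave low counts in these poly(A)-primed libraries: from 4.6 CPM, or 164 counts, to 371 CPM. In genome order many of them adjoin an mRNA or rRNA gene without a gap, MT-TT for instance starting at the base after MT-CYB, and read length and the treatment of reads that cross such borders are not given in the sources used here. Counts on a tRNA gene therefore cannot be told apart from uncut precursors that span it. The DNA-sense sequences of the 5 tRNAs described in most detail are printed below, with the anticodon in capitals.
MT-TT: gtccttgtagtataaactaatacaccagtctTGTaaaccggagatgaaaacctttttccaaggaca
MT-TF: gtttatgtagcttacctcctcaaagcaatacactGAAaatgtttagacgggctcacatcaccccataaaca
MT-TQ: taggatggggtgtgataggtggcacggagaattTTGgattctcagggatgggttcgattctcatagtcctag
MT-TK: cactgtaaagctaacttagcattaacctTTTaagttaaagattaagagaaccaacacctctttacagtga
MT-TW: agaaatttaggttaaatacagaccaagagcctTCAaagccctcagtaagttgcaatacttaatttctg

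MT-TT, the threonine tRNA gene (chrM:15888-15953, plus strand), had 14.3, 13.2 and 13.3 CPM in VEZF1-WT and 16.4, 16.9 and 16.1 CPM in VEZF1-2A. The groups did not overlap, and the log2 fold change of -0.27 (SE 0.08; edgeR unadjusted p = 0.00563) carried the smallest p of the 37 genes. The p of MT-TT stayed at or under 0.0224 in edgeR whichever library was left out. MT-TT was named for its small p in these same libraries, so fits that share most of them are no separate support. MT-TF, the phenylalanine tRNA gene (chrM:577-647, plus strand), which is the first gene of the heavy-strand transcript, had 8.68, 8.62 and 6.17 CPM against 9.95, 10.04 and 8.81 CPM. Its groups did not overlap, at a log2 fold change of -0.30 (SE 0.14; edgeR unadjusted p = 0.0553), but did under scaling by library size alone. MT-TQ, the glutamine tRNA gene of the minus strand (chrM:4329-4400), had 8.94, 5.95 and 7.88 CPM against 7.99, 8.67 and 10.8 CPM, overlapping groups with a log2 fold change of -0.26 (SE 0.16; edgeR unadjusted p = 0.128).

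The most abundant tRNA gene was MT-TK, for lysine (chrM:8295-8364, plus strand), with 304, 273 and 367 CPM in VEZF1-WT and 264, 312 and 371 CPM in VEZF1-2A. Its group means of 315 and 316 CPM differed by far less than the spread (log2 fold change -0.00, SE 0.13). MT-TS1, for serine, averaged 122 and 127 CPM, MT-TW, for tryptophan, 111 and 115 CPM, MT-TE, for glutamate, 89.3 and 95.2 CPM, and MT-TC, for cysteine, 87.0 and 87.8 CPM, all with overlapping groups. By annotated strand, the log2 fold change was below 0 for 8 of 8 tRNA genes of the light-strand transcript, from -0.26 to -0.01. It was below 0 for 7 of 14 of the heavy-strand transcript, beside 49.9% of all genes tested. Whether reads were counted by strand is not given in the sources used here, so these counts may include RNA of the opposite strand. The difference between these strands was not tested.

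As a share of all counts, the 37 genes together took 7.94%, 8.03% and 8.28% in VEZF1-WT against 8.29%, 8.55% and 8.54% in VEZF1-2A. The groups touched without overlapping, with means of 8.08 ± 0.175% and 8.46 ± 0.15% (SD, n = 3). The log2 difference of the share was -0.066, and -0.041 when counts were divided by gene length first. Fewer mitochondria, fewer genome copies and less RNA per copy cannot be told apart in such bulk libraries. Broken down by class, mRNAs took 6.63% to 7.25% of all counts, rRNAs 1.09% to 1.35% and tRNA genes 0.122% to 0.139%, each with overlapping groups. The libraries were poly(A)-primed, and how far the shares of counts of these classes follow their RNA amounts was not tested. Within the mitochondrial counts, mRNAs made up 83.9 ± 1.26% in VEZF1-WT and 83.8 ± 1.11% in VEZF1-2A. The ratio of rRNA to mRNA counts was 0.173 ± 0.0178 and 0.175 ± 0.0163. The log2 difference of that ratio, -0.016, had no stable sign, with -0.088 without VEZF1-2A replicate 3 and 0.067 without VEZF1-WT replicate 3.

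A ratio inside a library does not depend on scaling. MT-ND6 over MT-ND5, the neighbours read from opposite strands, was 0.561, 0.554 and 0.562 in VEZF1-WT against 0.570, 0.567 and 0.575 in VEZF1-2A. The ratio did not overlap between groups, at means of 0.559 ± 0.00456 and 0.571 ± 0.00419 (SD, n = 3). The ratio of MT-ATP6 to MT-ND6, which is on another scale, ranged from 1.83 to 2.39 over all libraries. MT-ND6 over MT-ND5 was not among the planned ratios, and an exact permutation test of 3 libraries against 3 cannot give a p below 0.1. The ratios of MT-ATP6 to MT-ND6, MT-CO3 to MT-CO1 and MT-RNR2 to MT-RNR1 overlapped between groups. MT-ND6 as a percent of the 12 heavy-strand mRNAs, which was planned, overlapped as well, at 7.78, 7.76 and 6.97 against 8.08, 8.09 and 7.48. The library numbered 3 had the lowest value of this percent in each group, and its log2 difference of -0.072 became -0.020 without VEZF1-WT replicate 3 and -0.11 without VEZF1-2A replicate 3.

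**Figure D3:**
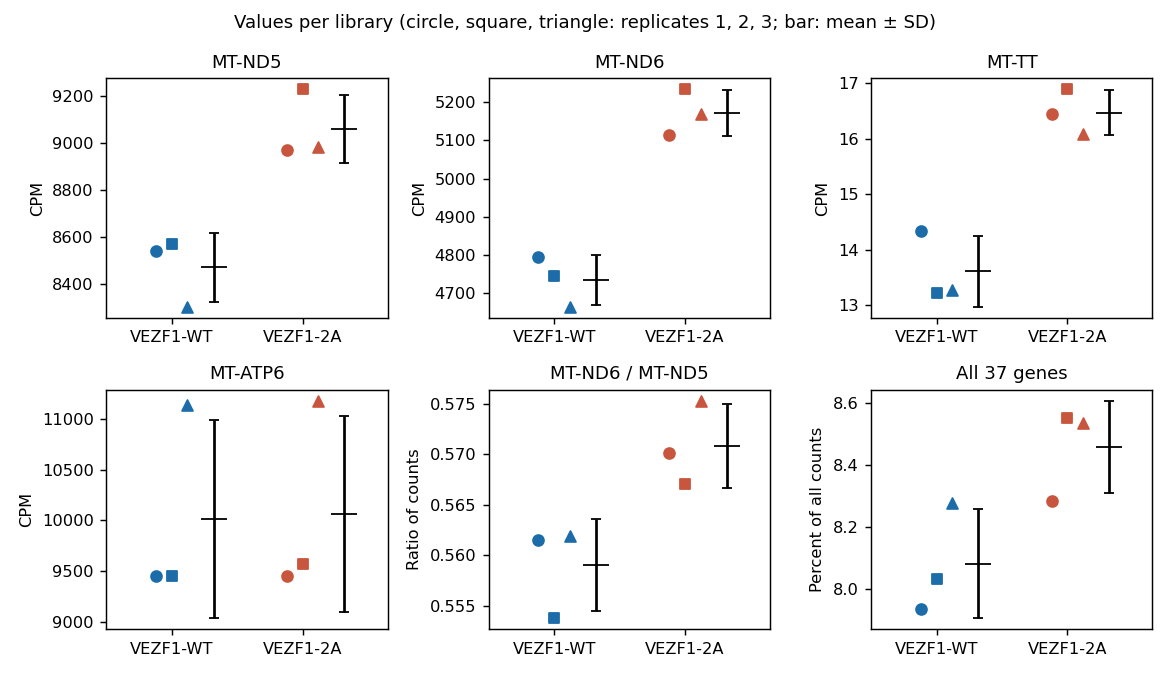
Values of 4 genes in CPM, the ratio of MT-ND6 to MT-ND5 counts, and the percent of all counts on the 37 genes, by library; markers give replicates 1 to 3, black bars the mean ± SD of 3, and the vertical axes do not start at 0. MT-ND5, MT-ND6, MT-TT and the ratio separate the groups, whereas MT-ATP6 separates the libraries numbered 3 (11140 and 11183 CPM) from the other 4.

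Several of these RNAs differed more between the libraries of a group than between the groups. In 10 of the 37 genes both libraries numbered 3 were above all of the other 4, beside 15.4% of all genes tested, and in 7 both were below all of the other 4, beside 15.3% (either, 30.7%). The 10 comprised 7 mRNAs (MT-ND2, MT-CO2, MT-ATP8, MT-ATP6, MT-CO3, MT-ND3 and MT-CYB) and 3 tRNA genes (MT-TI, MT-TW and MT-TK), and the 7 comprised both rRNAs and 5 tRNA genes (MT-TV, MT-TN, MT-TC, MT-TY and MT-TP). MT-ATP6 was 1.18 times the mean of the other libraries of its group in VEZF1-WT and 1.18 times in VEZF1-2A. MT-TI, the isoleucine tRNA gene, was 1.28 and 1.71 times that mean, and MT-TW 1.20 and 1.60 times. In the opposite direction, MT-RNR1 stood at 0.873 and 0.817 times it, and MT-TP, the proline tRNA gene, at 0.781 and 0.663 times. MT-TI, MT-TV, MT-TN, MT-TY and MT-TP are named here because of these values.

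Other measures of the libraries moved with the number 3 as well. Their TMM factors, 0.986 and 0.977, were the lowest of their groups, and the hepatocyte gene AFP, alpha-fetoprotein, had 3643 and 3482 CPM in them against 1763 to 2065 CPM in the other 4. The labels name no batch for this number, and its part in the differences was not tested. Without both libraries numbered 3 the median log2 fold change of the 37 genes was -0.06, with 24 of 37 below 0, and MT-ND6 had a log2 fold change of -0.12 and MT-TT of -0.27. In that edgeR fit of 2 libraries against 2 their quasi-likelihood unadjusted p was 0.0261 and 0.0150. There 4.3% of all genes tested were at an unadjusted p under 0.05. Both genes had been singled out by their p in the full set of libraries, so a fit to part of that set is no separate support.

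**Figure D4:**
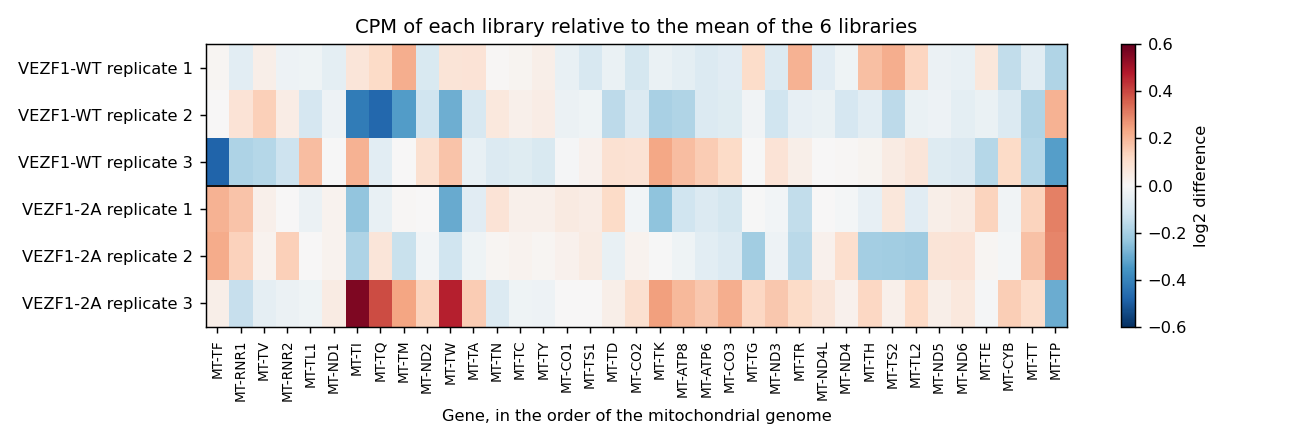
log2 of the CPM of each library relative to the mean of log2 CPM over the 6 libraries, for the 37 genes in genome order; red is above and blue below that mean, and the line parts VEZF1-WT from VEZF1-2A. The rows of replicate 3 of both groups share red from MT-ATP8 to MT-CO3 and blue at MT-RNR1 and MT-TP.

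The nuclear genome carries fragments of mitochondrial DNA, and reads from such a copy and from its mitochondrial original can be hard to tell apart. The table lists 408 nuclear copies, of which 221 were at 0 in all libraries and 14 had at least 100 counts in every library. Together they amounted to 3.88% to 4.51% of the counts on the 37 genes, unevenly spread. MTATP6P1 on chromosome 1 (chr1:633696-634376, plus strand) alone had 59009 to 143565 counts, and the copies of MT-ATP6 together reached 21.0% to 22.9% of the count of MT-ATP6 itself. For MT-ND2 the share was 9.54% to 9.85%, led by MTND2P28, and for MT-CO1 it was 8.50% to 9.45%, led by MTCO1P12. MT-ND1 had 1.01% to 1.28%, and the other mRNAs were under that. The copies on chromosome 1 are close in sequence to their originals without being close in count: MTATP6P1 is identical to MT-ATP6 at 98.5% of 681 bases and MTATP8P1 to MT-ATP8 at 97.6% of 207, yet MTATP8P1 had 195 to 508 counts. A stretch of 60 bases with 3 mismatches, the most in any window of that size, follows, with the mismatched bases in capitals (chrM:8642-8701 and chr1:633811-633870, plus strands).
MT-ATP6: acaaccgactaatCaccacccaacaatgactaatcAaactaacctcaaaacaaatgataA
MTATP6P1: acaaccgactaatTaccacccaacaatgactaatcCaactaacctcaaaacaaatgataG

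The share of nuclear copies for MT-ATP6 did not differ beyond the spread between groups, at 21.98 ± 0.92% in VEZF1-WT and 21.9 ± 0.516% in VEZF1-2A (SD, n = 3). Levels of MT-ATP6, MT-ND2 and MT-CO1 are uncertain by about these shares or more if reads of the originals were assigned to copies. How reads that match both places were treated is not given in the sources used here, so a low share does not bound the uncertainty. Runs identical to the copy with most counts reached 266 bases in MT-ND2, 245 in MT-CO1 and 157 in MT-ND1. With the copies' counts added to their originals, 30 of 37 log2 fold changes were still below 0 and the median was -0.06.

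The respiratory complexes join mitochondrially encoded subunits to nuclear partners. The lists of partners held 37 genes for complex I, 9 for complex III, 10 for complex IV and 15 for complex V, and all were tested. Their median levels per length (mean of 6 libraries, over the combined exons of each gene) were 12.3, 21.3, 36.8 and 24.3 RPKM, against 6133, 2719, 3932 and 17008 RPKM for the mitochondrially encoded subunits. In no complex did a nuclear partner reach the lowest mitochondrially encoded subunit. The closest was NDUFS5, an accessory subunit of complex I, at 1313 RPKM beside 1795 RPKM for MT-ND3. The ratio of the medians was 459 to 532 in complex I, 118 to 140 in complex III, 99.0 to 117 in complex IV and 636 to 791 in complex V over the 6 libraries. Annotated exons that HepG2 cells do not use lower the RPKM of nuclear genes, so these ratios hold for the lengths given in the table.

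Between the groups, the partners' median log2 fold changes were 0.00, 0.00, -0.01 and 0.00 in complexes I, III, IV and V, beside -0.08, -0.07, -0.06 and -0.02 for the mitochondrially encoded subunits of the same complexes. None had an adjusted p under 0.05. NDUFAB1, the acyl carrier protein of complex I, was the 1 partner of 71 at an unadjusted p under 0.05, beside 2.13% of all genes tested, at 44.8 ± 2.42 CPM in VEZF1-WT and 40.3 ± 0.623 CPM in VEZF1-2A (log2 fold change 0.15, SE 0.06; edgeR unadjusted p = 0.0362). In the other direction the smallest p was that of COX7B, a subunit of complex IV, with a log2 fold change of -0.12 (SE 0.06; edgeR unadjusted p = 0.0625).

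Nuclear genes that make, process and translate mitochondrial RNA were listed in 6 groups, and none of their members had an adjusted p under 0.05. The 9 genes of mitochondrial transcription had a median log2 fold change of 0.06, with 8 above 0 and 0 at an unadjusted p under 0.05. TEFM, the elongation factor of the mitochondrial polymerase, had the smallest p among those above 0 (5.68 ± 0.435 against 5.01 ± 0.342 CPM, log2 fold change 0.18, SE 0.12), and MTERF3 was the 1 below 0 (-0.03, SE 0.12). Of 13 genes of RNA processing and modification 1 passed an unadjusted p under 0.05, beside 2.13% of all genes tested, with a list median of 0.04. This was TRMT10C, a subunit of the enzyme that cuts the 5′ end of mitochondrial tRNAs, at 46.2, 47.0 and 44.6 CPM in VEZF1-WT and 42.5, 39.3 and 41.4 CPM in VEZF1-2A. Its groups did not overlap, and its log2 fold change was 0.16 (SE 0.06; edgeR unadjusted p = 0.0238). PRORP, the nuclease of the same enzyme, stood at -0.04 (SE 0.07).

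The 14 genes of RNA stability, polyadenylation and decay had a median log2 fold change of 0.01, with 8 above and 6 below 0. Among them were SLIRP, which binds mitochondrial mRNAs together with LRPPRC, at 0.09 (SE 0.05), and FASTK at -0.12 (SE 0.12). For 11 genes of mitochondrial DNA maintenance the median was 0.03, and the genes of smallest p in each direction were MGME1, a nuclease, at 0.09 (SE 0.06) and DGUOK, a nucleoside kinase, at -0.06 (SE 0.08). For 78 proteins of the mitochondrial ribosome it was 0.04, with 54 above and 24 below 0, beside 50.1% of all genes above 0. Of the 78, 2 passed an unadjusted p under 0.05, both higher in VEZF1-WT, a share close to the 2.13% over all genes tested. MRPS18C had the smaller p, at 98.1, 103 and 99.6 CPM against 90.9, 89.5 and 90.6 CPM (log2 fold change 0.15, SE 0.05; edgeR unadjusted p = 0.0168). MRPS16 led the other direction at -0.15 (SE 0.07; edgeR unadjusted p = 0.0744). The 8 translation factors had a median of 0.02, with TSFM at 0.09 (SE 0.07) and MRRF at -0.06 (SE 0.08).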

How the data were processed

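RNA-seq of HepG2 cells expressing VEZF1-WT or VEZF1-2A was analysed, 3 libraries each, grouped by their labels. The authors deposited 1 table of whole-number read counts per gene, without normalization. RNA was purified with a column kit and made into libraries with a poly(A)-primed mRNA kit; per the labels the genome build is GRCh38, and the aligner, counter and strand setting are not given in the sources used here. A group of 5 broken lines (ANK2) was left out. Between 51.4% and 70.3% of the counts on the 37 genes in a library were even.

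Genes were filtered with filterByExpr (minimum count 10, minimum total 15), scaled by TMM and tested with glmQLFit and glmQLFTest in edgeR 4.0.16 (R 4.3.3), group as the only covariate, with Benjamini-Hochberg adjustment over 19111 genes. The common biological coefficient of variation was 9.71%. Precision differed by gene, with standard errors of the log2 fold change from 0.05 to 0.21 among the 37 genes. The script was tested on simulated counts with fold changes larger than those of the 37 genes, which says nothing about differences of their size. Exact permutation tests used log2 of CPM plus 0.1. RPKM used the lengths in the table. Sequences are those of GENCODE release 29. Library pairs of a group differed by more than sampling noise.

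Named were all mRNAs and rRNAs, the 5 tRNA genes of highest mean CPM, the 3 of smallest p, those with under 10 counts in a library (none), and the gene of smallest p in each direction of each nuclear list; genes outside this rule were named after their values were seen. The mitochondrial genes and the lists were chosen with earlier results of these data known. Alternatives were other scalings and filters, DESeq2 1.42.0, voom in limma 3.58.1, halved counts, nuclear copies added, counts per length (for shares and ratios), a replicate block and each library left out; leaving out both libraries numbered 3, and scalings for the counts of groups that do not overlap, were added after seeing the data. Figures were drawn with matplotlib 3.10.9.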

Additional observations from a re-analysis of the deposited data

How the results depend on the processing

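The count of mitochondrially encoded genes with an adjusted p under 0.05 was 0 in every alternative run. Over all genes it was 0 in edgeR as described, 16 without a filter on low counts (of 38745 genes), 3 with DESeq2, 6 with the replicate number as a block and 4 without both libraries numbered 3; at an unadjusted p under 0.05 it ran from 219 (DESeq2) to 973 (without VEZF1-2A replicate 3), around 408. Mitochondrially encoded genes at an unadjusted p under 0.05 numbered 2 in edgeR as described (2.13% of all genes tested), 5 without a filter (2.31%), 4 with limma voom (2.26%), 7 with the block (4.32%), 5 without both libraries numbered 3 (4.3%), and 1 to 6 with a library left out (1 without VEZF1-2A replicate 1 or replicate 2, 6 without VEZF1-2A replicate 3, where the share of all genes was 4.89%). These were lower in VEZF1-WT except for MT-TR, which was higher without VEZF1-2A replicate 3 and without both libraries numbered 3. The replicate numbers do not pair the libraries by the rule used: deviations from the group means correlated by 0.0792, 0.144 and 0.362 for numbers 1, 2 and 3 over 19111 genes, the first under 0.1, and only number 3 correlated best with its own number from both sides. Of the 23 mitochondrially encoded genes that the naming rule gives, 17 kept their sign in every alternative run. The log2 fold change turned positive for MT-ATP6 (0.0060) and MT-TK (0.012) without a filter, for MT-TK (0.0025) with voom, and for MT-CO3 (0.019), MT-TW (0.11) and MT-TK (0.0011) without both libraries numbered 3. With a library left out it ranged from -0.092 to 0.073 for MT-ATP6, -0.14 to 0.059 for MT-ATP8, -0.090 to 0.086 for MT-CO3, -0.034 to 0.016 for MT-TC, -0.13 to 0.13 for MT-TK and -0.20 to 0.20 for MT-TW. The number of genes below 0 ranged from 23 (without VEZF1-2A replicate 3) to 32 with a library left out and was 26 without a filter, and their median stayed between -0.09 and -0.03. Genes whose groups did not overlap numbered 6 or 7 under 5 scalings, beside 7.35% to 7.39% of all genes. Apart from what the construction of an alternative fixes, such as fewer libraries or more genes tested, the cause was not tested.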
